A study of Mus musculus with 4 samples.

Results

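The genes described here are 9 markers of the oligodendrocyte lineage, the glial lineage that makes myelin in the central nervous system. They are the transcription factors Olig1, Olig2 and Nkx2-2, the progenitor surface proteins Pdgfra, Cspg4 and Gpr17, and the myelin-associated proteins Cnp, Mbp and Mag. They were chosen by name, and each was found in 1 of the 18169 rows of the expression table. RNA had been sequenced from undifferentiated primary neural stem/progenitor cells (NSCs) of C57BL/6 mice, from 2 +/+ and 2 Chd5-/- cultures. Each culture was grown from the tissue around the ventricles of a single newborn brain, in medium that held epidermal growth factor and fibroblast growth factor 2. The Chd5-/- cells came from a mouse line deficient for the chromatin remodeler Chd5, and no other allele or agent is named for either genotype. The age entries in the labels read postnatal day 1 and 2 for the +/+ samples and day 3 and 4 for the Chd5-/- samples, whereas the growth protocol gives day 1 for all. By these entries age and genotype cannot be told apart.

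In the forebrain, Olig2 and Olig1 are basic helix-loop-helix factors that specify oligodendrocyte precursors, and Olig2 is also present in many cultured neural progenitors that have not chosen a lineage. Precursors then carry Pdgfra, the receptor for platelet-derived growth factor A, and the proteoglycan Cspg4 (NG2). Cells that leave this state pass through a committed stage marked by the receptor Gpr17, and only afterwards accumulate the proteins of compact and non-compact myelin. Nkx2-2 is a homeodomain factor that acts at the passage from precursor to differentiating cell.

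To show the sequence in front of the genes whose values are contrasted here, the upstream DNA of Olig2, of Pdgfra and of Cnp is given. It is from RefSeq on GRCm38.p6, all on the plus strand. It stops before the first base that GENCODE M21 counts as exon, except that Pdgfra was cut at 250 bases, short of the gene's start at 75152292. Olig2 (157 bases, chr16:91225300-91225456) differed little between cultures, whereas Pdgfra (250 bases, chr5:75152001-75152250) and Cnp (215 bases, chr11:100574689-100574903) had their highest values in the same culture. Capitals mark the E-box CANNTG, the letters that basic helix-loop-helix factors can bind, which reads the same on both strands.
Olig2: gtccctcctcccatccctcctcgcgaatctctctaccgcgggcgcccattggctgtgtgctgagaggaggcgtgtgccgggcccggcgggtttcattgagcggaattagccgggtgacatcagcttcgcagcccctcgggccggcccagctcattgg
Pdgfra: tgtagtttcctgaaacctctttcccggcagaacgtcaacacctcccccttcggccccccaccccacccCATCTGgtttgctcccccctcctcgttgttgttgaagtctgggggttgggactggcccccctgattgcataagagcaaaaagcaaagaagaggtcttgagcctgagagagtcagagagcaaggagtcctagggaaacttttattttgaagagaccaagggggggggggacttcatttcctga
Cnp: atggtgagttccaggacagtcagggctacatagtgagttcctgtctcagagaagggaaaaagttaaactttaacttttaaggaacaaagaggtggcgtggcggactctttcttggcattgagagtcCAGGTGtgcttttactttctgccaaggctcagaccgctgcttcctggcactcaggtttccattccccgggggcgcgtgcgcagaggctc
The Pdgfra and Cnp stretches each hold 1 E-box and that of Olig2, the shortest, holds 0. The longer promoter window of Pdgfra, of the kind described below, holds 2. The stretch of Cspg4 (179 bases), also highest in that culture, holds 0 and that of Nkx2-2 (197 bases), which was not, holds 3. The Nkx2-2 stretch (chr2:147186456-147186652, minus strand) lies inside the GENCODE span of the gene and so precedes an internal start. Whether an E-box bears on these values was not tested. Promoter windows running from 250 bases before to 50 bases after the start were found for 6 of the 9 genes, in 8 windows, and 6 of these windows held CANNTG. The share is close to that of all promoters, since 72.3% of 32851 such windows held it. Several of the 8 windows belong to Mag, some of them overlapping, and each of these held CANNTG, so the share counts windows and not genes. The form CAGCTG was in 0 of the 8 windows and in 16.3% of all.

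Expression was given as TPM, the share of transcripts after adjusting for their length, scaled to a fixed total per sample, which keeps no record of read numbers, so the depth behind a value is unknown. The targeted gene Chd5 was at 0.39 and 0.37 TPM in the +/+ cultures against 0.06 and 0.04 TPM in the Chd5-/- cultures. Among the 12576 rows that averaged 1 TPM or more, which were tested, Spearman's rho was 0.974 between the +/+ samples and 0.904 between the Chd5-/- samples, which differed by 2-fold or more in 16.9% of rows, against 4.05% for the +/+ samples. The Chd5-/- cultures thus stood apart from each other, and differences that rest on either are also given with it left out. The stem cell transcripts Fabp7, Vim and Sox2 were high in every culture, with Fabp7 between 1939 and 5892 TPM. In such bulk samples, fewer cells of a type and less RNA per cell cannot be told apart.

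Olig1 and Olig2 were abundant in all 4 NSC cultures, and above every other member except Cnp. Olig1 (chromosome 16 of GRCm38, 91269772 to 91271933) was at 387.43 and 452.9 TPM in the +/+ cultures against 300.77 and 664.38 TPM in the Chd5-/- cultures, so that the Chd5-/- cultures held both the lowest and the highest value. Olig2, which lies 41095 bases before Olig1 on the same strand (91225457 to 91228677), was the steadiest member, at 155.6 and 162.13 TPM in the +/+ cultures against 190.31 and 169.68 TPM in the Chd5-/- cultures. Its values spanned 1.22-fold in all. The genotypes did not overlap for Olig2, but both Chd5-/- samples lay above both +/+ samples in 46.3% of all rows tested. The ratio of Olig1 to Olig2 was 2.49 and 2.79 in +/+ cells, beside 1.58 in Chd5-/- replicate 1 and 3.92 in replicate 2.

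Nkx2-2 (chromosome 2, 147177546 to 147194243, minus strand) followed neither genotype nor the other members. It was at 4.88 and 20.41 TPM in the +/+ cultures against 17.18 and 9.07 TPM in the Chd5-/- cultures, with +/+ replicates at the lowest and the highest end. The difference between the +/+ samples, 1.86 in log2(TPM + 1), was matched or exceeded by 0.716% of all rows. Its antisense transcript Nkx2-2os, which overlaps it on the opposite strand, was at 0.26 and 1.31 TPM in the +/+ cultures against 0.7 and 0.35 TPM in the Chd5-/- cultures. This is the same order of samples. Whether counting used the strand is not given in the sources used here, so reads of the overlapping genes may be shared.

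The genes of the progenitor surface were low in most cultures and highest in Chd5-/- replicate 2. Pdgfra (chromosome 5, 75152292 to 75198215) was at 13.02 and 1.84 TPM in the +/+ cultures against 2.98 and 22.75 TPM in the Chd5-/- cultures. It divided each genotype into a high and a low culture, by 7.08-fold in +/+ and 7.63-fold in Chd5-/- cells. Cspg4 (chromosome 9, 56865033 to 56899870), which pericytes also make, was at 3.81 and 3.25 TPM in the +/+ cultures against 4.73 and 10.93 TPM in the Chd5-/- cultures. The genotypes did not overlap for Cspg4, and Chd5-/- replicate 2 stood 2.31-fold above the next sample.

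Gpr17, the marker of committed precursors, had the widest range of the 9 genes. On chromosome 18 (31942997 to 31949636, minus strand), it was at 3.77 and 1.41 TPM in the +/+ cultures against 0.58 and 76.45 TPM in the Chd5-/- cultures. The Chd5-/- cultures were thus its lowest and its highest, 132-fold apart, and replicate 2 was 20.3-fold above the next sample. Of all 12576 rows, 9 rows, Gpr17 among them, differed as much between the Chd5-/- samples. The gene Lims2, which overlaps Gpr17 on the opposite strand, was at 0.38 and 0.18 TPM in +/+ cells, at 0.33 TPM in Chd5-/- replicate 1 and at 6.51 TPM in replicate 2.

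Among the myelin genes, Cnp showed the same culture standing out, and the transcripts of mature myelin stayed near the bottom of the scale. Cnp (chromosome 11, 100574904 to 100591729), an enzyme of non-compact myelin that appears early in the lineage, was at 36.53 and 51.37 TPM in the +/+ cultures against 47.14 and 296.34 TPM in the Chd5-/- cultures. The first 3 values lie close together, and the fourth was 5.77-fold above the next. The neighbouring gene Dnajc7, which overlaps Cnp on the other strand, was at 163.05 and 140.8 TPM in the +/+ and at 139.94 and 164.18 TPM in the Chd5-/- cultures, with no such step. Mbp (chromosome 18, 82475146 to 82585637), a main protein of compact myelin, was at 1.66 and 1.26 TPM in the +/+ cultures against 1.19 and 2.65 TPM in the Chd5-/- cultures. Mag (chromosome 7, 30899176 to 30914873, minus strand), an adhesion protein of the inner myelin membrane, was listed at 0 and 0.08 TPM in the +/+ cultures against 0 and 0.14 TPM in the Chd5-/- cultures. It was the only member with a mean under 1 TPM and was not tested.

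**Figure D1:**
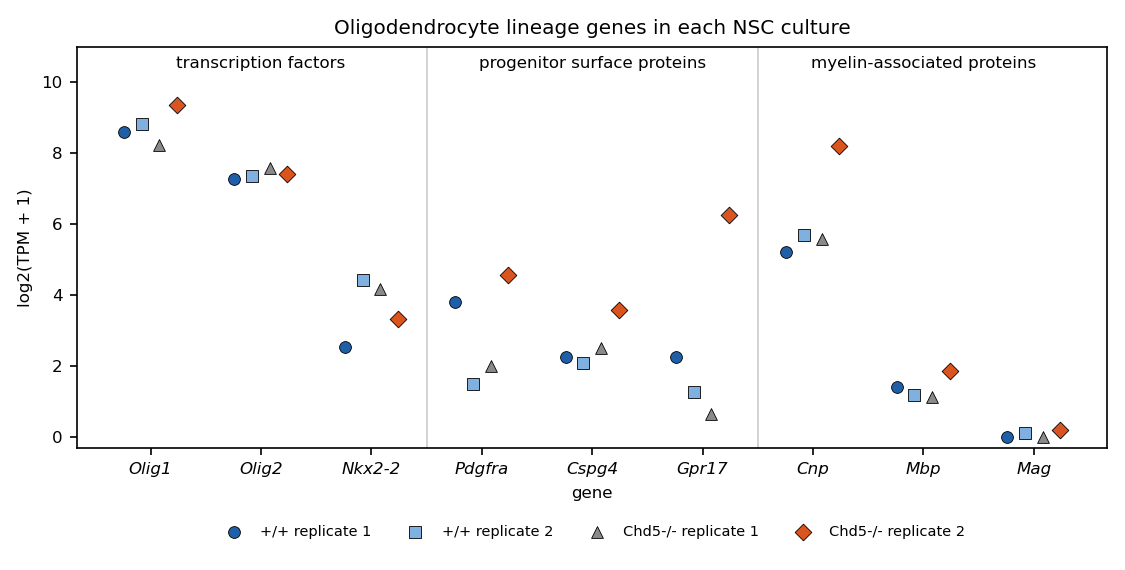
Expression of the 9 oligodendrocyte lineage genes in log2(TPM + 1) on the vertical axis, with 1 point for each of the 4 NSC cultures and the genes grouped by role along the horizontal axis. Chd5-/- replicate 2 (diamonds) was the highest culture for 7 of the 9 genes, while Olig2 lay between 155.6 and 190.31 TPM in all cultures.

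Chd5-/- replicate 2 was the highest sample for 6 of the 8 genes tested and for Mag, and for 39.9% of all rows. By mean TPM the order of the genes was Olig1, Olig2, Cnp, Gpr17, Nkx2-2, Pdgfra, Cspg4, Mbp and Mag. Gpr17, Nkx2-2, Pdgfra and Cspg4 overlapped one another across cultures, and the place of Gpr17 rested on Chd5-/- replicate 2. Without that culture it was at most 3.77 TPM. Summed over the 3 progenitor surface genes, TPM was 20.6 and 6.5 in +/+ cells against 8.29 and 110 in Chd5-/- cells. For the 3 myelin genes the sums were 38.2 and 52.7 TPM in +/+ cells and 48.3 and 299 TPM in Chd5-/- cells. The transcription factors moved less, with sums of 548 and 635 TPM in +/+ cells and 508 and 843 TPM in Chd5-/- cells. Olig1 and Olig2 accordingly made up between 86.9% and 89.5% of the TPM of all members in 3 cultures and 66.6% in Chd5-/- replicate 2.

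The question whether loss of Chd5 changed these genes was put to the comparison of 2 Chd5-/- against 2 +/+ samples, with limma on log2(TPM + 1). None of the 8 members tested passed an adjusted p of 0.05 over all rows, and 0 had an unadjusted p under 0.05, whereas 24.1% of all rows did (21.9% higher and 2.27% lower in Chd5-/- cells). This split depended on scaling, since 2748 rows were higher and 285 lower in the table as given, but after median-of-ratios scaling 1391 were higher and 1507 were lower. Over all rows, 7 passed the adjusted threshold, which is 0.0557%. The groups did not overlap for 2 of the 8, Olig2 and Cspg4, both with the Chd5-/- samples above, beside 46.3% of all rows. The members' median difference between genotypes was 0.45 in log2(TPM + 1), beside 0.34 for all rows tested.

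The largest genotype differences among the members were those of Gpr17, Cnp and Cspg4. Gpr17 averaged 2.59 ± 1.67 TPM in +/+ and 38.5 ± 53.6 TPM in Chd5-/- cells (SD, n = 2). It differed by 1.71 (standard error 1.79, 95% interval -2.83 to 6.24, adjusted p = 0.581 with limma). Cnp averaged 43.95 ± 10.5 TPM and 171.7 ± 176 TPM and differed by 1.43 (standard error 0.85, interval -0.73 to 3.59, adjusted p = 0.352). Cspg4 had the smallest p of the members, with a difference of 0.87 (standard error 0.44, interval -0.24 to 1.98, adjusted p = 0.286). In all of them the Chd5-/- samples lay further apart than the +/+ samples.

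Olig2, at 158.9 ± 4.62 TPM in +/+ and 180.0 ± 14.6 TPM in Chd5-/- cells (SD, n = 2), gave the narrowest interval, from -0.36 to 0.71 around a difference of 0.18, and Olig1 was at 0.094 (interval -0.97 to 1.16). The differences were 0.27 for Nkx2-2, 0.62 for Pdgfra and 0.21 for Mbp, with adjusted p-values from limma between 0.749 and 0.829. Pdgfra kept its sign under each scaling tried, and the signs of Olig1, Olig2, Nkx2-2 and Mbp did not. Once trends along GC content and transcript length were taken out, Olig1 was at -0.90, Olig2 at -0.78 (unadjusted p = 0.0165, adjusted p = 0.405 with limma) and Nkx2-2 at -0.59. After median-of-ratios scaling, which brought the median of all rows from 0.34 to -0.032, Olig1 was at -0.32, Olig2 at -0.24 and Nkx2-2 at -0.11.

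Leaving out Chd5-/- replicate 2 took the difference of Gpr17 from 1.71 to -1.10, that of Cnp from 1.43 to 0.12 and that of Pdgfra from 0.62 to -0.66. The members' median was then -0.022. Leaving out Chd5-/- replicate 1 instead gave 4.51 for Gpr17 (adjusted p = 0.0250 with limma) and 2.75 for Cnp (adjusted p = 0.0193), each with a single Chd5-/- sample that was assumed to vary like the other group, and 1247 of all rows then passed the adjusted threshold, as against 1086 without Chd5-/- replicate 2. Pdgfra also turned with a +/+ sample, to -0.53 without +/+ replicate 2, and Nkx2-2 was at -0.66 without +/+ replicate 1 and at 1.202 without +/+ replicate 2.

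**Figure D2:**
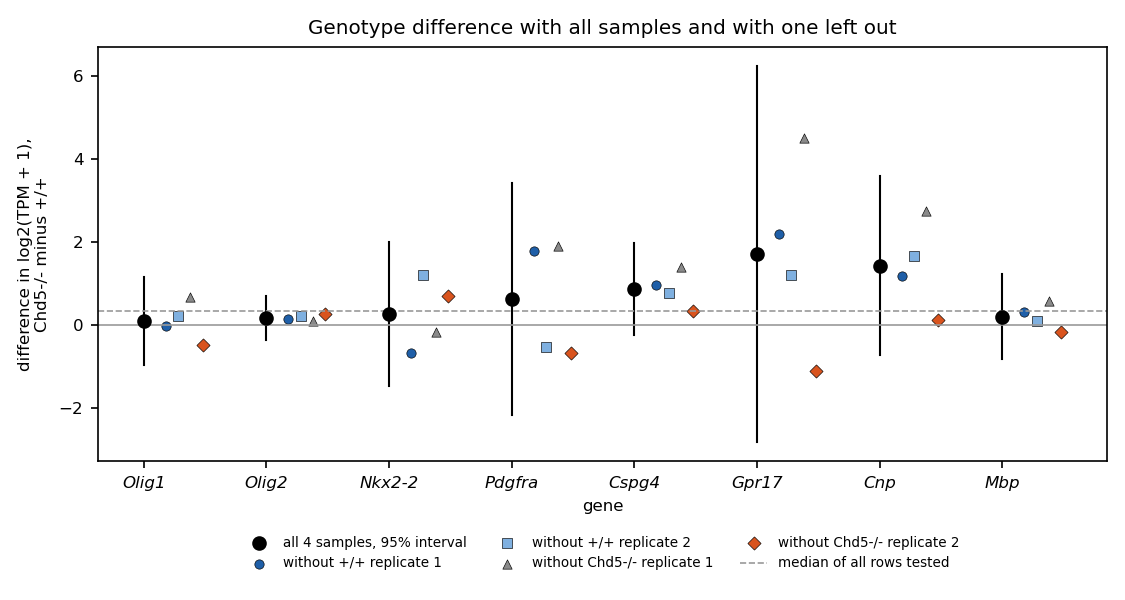
Difference in log2(TPM + 1), Chd5-/- minus +/+, on the vertical axis for the 8 members tested along the horizontal axis. Black points and lines give the limma estimate with its 95% interval, coloured points the estimate without 1 sample, and the dashed line the median of all rows (0.34), and every interval crosses 0, while the value of Gpr17 goes from -1.10 to 4.51 with the sample left out.

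The higher values in Chd5-/- replicate 2 were seen in many rows of the wider oligodendrocyte program. They were also seen in 3 of 11 rows tested of genes that hold back oligodendrocyte differentiation, given below. A further 4 lists hold 87 genes named for transcription factors of the lineage, for progenitors, for committed and premyelinating cells and for myelin, of which 63 rows were tested. In Chd5-/- replicate 2, TPM was at least 2-fold above each of the other samples in 24 of these rows and in 3 of the 8 members (Cspg4, Gpr17 and Cnp), beside 5.11% of all rows. The same was so for 2 rows in Chd5-/- replicate 1, 0 in +/+ replicate 1 and 0 in +/+ replicate 2, beside 5.79%, 0.445% and 0.366% of all rows. No listed row was 2-fold below the others in Chd5-/- replicate 2, whereas 8 were in Chd5-/- replicate 1, beside 2.34% and 1.98% of all rows. For 5 of the 63 rows the mean of the other 3 samples was under 1 TPM, and among the 58 that did not need Chd5-/- replicate 2 to be tested, 19 stood out in it, beside 4.34% of all such rows. Lims2, which overlaps Gpr17 on the opposite strand, was among the 24 rows but not among these 19. Of the 2 rows of Zeb2, the lower was among the 24 and the higher was not.

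The number of listed rows that stood out fell under each other scaling tried, as did the share of all rows. Counted as a gap of at least 1 on the log2 scale, it took in 21 of 63 listed rows in the table as given. With TPM rescaled by median ratios there were 19, with quantiles made equal 18, with the 20 top rows taken out of the total 20, and with the GC and length trends taken off 15. In that order, the shares of all rows were 3.97%, 2.70%, 2.77%, 3.58% and 2.52%. Gpr17 and Cnp kept gaps between the Chd5-/- samples of 5.47 and 2.65 with these trends removed. Cspg4 was no longer 1 log2 unit above each other sample after quantile normalization or with the trends removed, which left 2 of the 8 members under each.

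Among the transcription factors of the lineage, Sox8, Sox3 and Myt1 were well above the other cultures in Chd5-/- replicate 2. Sox8, which acts with the closely related Sox10 in oligodendrocytes, was at 58.85 and 36.5 TPM in +/+ cells and at 41.23 and 242.25 TPM in Chd5-/- cells. Myt1, a zinc finger factor of progenitors, was at 9.93 and 1.11 TPM and at 5.58 and 57.03 TPM. Sox10, the defining factor of the lineage, had the pattern of Pdgfra, with 6.04 and 1.46 TPM in +/+ cells and 1.23 and 9.37 TPM in Chd5-/- cells. Myrf, the factor that switches on myelin genes, was at most 3.2 TPM. In the genotype comparison 2 of the 20 rows tested were higher and 1 lower at an unadjusted p under 0.05, beside 21.9% and 2.27% of all rows. The list's median of 0.21, beside 0.34 for all rows, was -0.11 without Chd5-/- replicate 2, 0.64 without Chd5-/- replicate 1 and -0.14 after median-of-ratios scaling. The lower row was Prrx1, a homeobox factor, at 58.95 and 92.48 TPM in +/+ and 29.15 and 24.18 TPM in Chd5-/- cells (log2 difference -1.44, adjusted p = 0.120 with limma). The row with the larger of the positive differences was Chd7, a remodeler of the same family as Chd5, at 16.38 and 11.9 TPM and at 27.21 and 62.2 TPM (1.496, adjusted p = 0.150).

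The progenitor genes held 8 of 19 rows that stood 2-fold above the other samples in Chd5-/- replicate 2, beside 5.11% of all rows. In Chd5-/- replicate 1, 2 rows stood 2-fold above and 4 stood 2-fold below the others, beside 5.79% and 1.98% of all rows. Tnr, the matrix protein tenascin-R, was at 2.93 and 1.25 TPM in +/+ cells and at 2.22 and 87.51 TPM in Chd5-/- cells, 29.9-fold above the next sample. The other progenitor genes did not all follow. Lhfpl3 was at 132.95 and 102.96 TPM in +/+ cells and at 8.6 and 91.87 TPM in Chd5-/- cells, so that it was Chd5-/- replicate 1 that stood apart. The proteoglycan Vcan was at 6.63 and 8.51 TPM in +/+ and 93.65 and 28.04 TPM in Chd5-/- cells, and its genotype difference of 2.62 was the largest of the list (adjusted p = 0.121 with limma). Of the 19 rows, 3 were higher and 0 lower at an unadjusted p under 0.05, a smaller share than the 21.9% of all rows that were higher. The median difference of 0.63 was -0.040 without Chd5-/- replicate 2, 1.205 without Chd5-/- replicate 1 and -0.0059 with GC and length trends removed.

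Genes of committed and premyelinating cells gave 6 of 14 rows that stood out in Chd5-/- replicate 2, among them Lrrn1 and Mycl, beside 5.11% of all rows. Lrrn1, a leucine-rich repeat protein, was at 76.31 and 38.35 TPM in +/+ and 105.1 and 519.91 TPM in Chd5-/- cells. Bcas1, which marks early myelinating cells, was at 9.08 and 8.28 TPM in +/+ and 27.3 and 39.8 TPM in Chd5-/- cells, high in both Chd5-/- cultures. Its log2 difference was 1.81 (adjusted p = 0.120 with limma). Enpp6, a marker of newly forming oligodendrocytes, was at most 2.79 TPM, again in Chd5-/- replicate 2. Of these 14 rows, 2 were higher and 0 lower at an unadjusted p under 0.05, again a smaller share than the 21.9% of all rows. Their median of 0.51 was 0.23 without Chd5-/- replicate 2, 0.88 without Chd5-/- replicate 1 and -0.022 with GC and length trends removed.

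Of 25 genes of myelin and mature oligodendrocytes, 22 were found, 9 of these were under 1 TPM in every culture, and 10 were tested. Gjc3, a connexin, was at 53.21 and 42.08 TPM in +/+ cells and at 9.56 and 466.79 TPM in Chd5-/- cells, 48.8-fold apart between the Chd5-/- cultures. Of the 10 rows, 4 stood 2-fold above the other samples in Chd5-/- replicate 2, beside 5.11% of all rows. Mobp, Opalin, Ermn and Hapln2, which belong to mature myelin, were at most 0.12 TPM in any culture. Other genes of the list were not low. Omg was at 59.45 and 41.32 TPM in +/+ and 6.98 and 189.51 TPM in Chd5-/- cells, and Car2 lay between 191.06 and 420.1 TPM. For genotype, 3 of the 10 rows were higher and 0 lower at an unadjusted p under 0.05, beside 21.9% of all rows higher, and 1 was higher after median-of-ratios scaling. The median of 0.45 was -0.018 without Chd5-/- replicate 2, 1.06 without Chd5-/- replicate 1 and 0.047 after that scaling. The clearest was Trf, transferrin, at 72.17 and 54.14 TPM in +/+ and 223.39 and 143.33 TPM in Chd5-/- cells (1.502, adjusted p = 0.120 with limma).

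**Figure D3:**
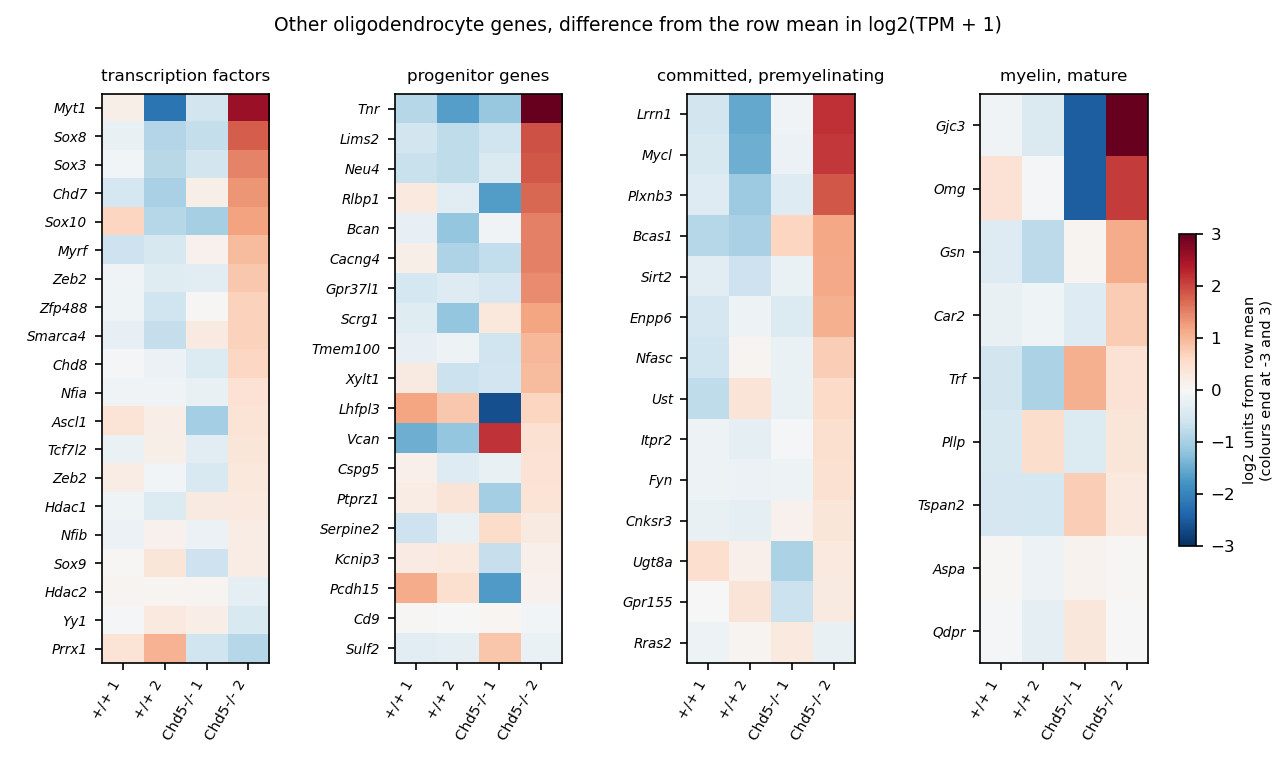
Heat maps of the rows tested, except 1 that is not drawn, in 4 further lists of oligodendrocyte genes, each row a gene and each column a culture, coloured by the difference from the row mean in log2(TPM + 1), with colours ending at -3 and 3. Chd5-/- replicate 2 was the highest of the 4 cultures in 44 of the 63 rows, sorted with its largest values on top (Zeb2 has 2 rows in the table).

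Genes that hold back oligodendrocyte differentiation were considered as a list of 14, with 11 rows tested. Chd5-/- replicate 2 was at least 2-fold above each other sample in 3 of these rows and +/+ replicate 2 in 2, beside 5.11% and 0.366% of all rows. Chd5-/- replicate 1 was at least 2-fold below each other sample in 5 of them, beside 1.98% of all rows. The median gap from Chd5-/- replicate 1 to replicate 2 was 1.33 in log2(TPM + 1), beside 0.94 for the 4 other lists and 0.0021 for all rows. The list's median difference between genotypes was -0.62, with 1 row higher and 4 lower at an unadjusted p under 0.05, beside 21.9% and 2.27% of all rows, and 0 past the adjusted threshold. The sign rested on Chd5-/- replicate 1, since without it the median was 0.42, with 4 rows higher and 2 lower. Without +/+ replicate 2 the median was -0.40 with 0 rows lower, and with no minimum TPM it was -0.058. Id2, which sequesters basic helix-loop-helix partners, was at 158.58 and 290.2 TPM in +/+ cells and at 46.27 and 118.02 TPM in Chd5-/- cells (-1.52, adjusted p = 0.178 with limma). Lingo1, a membrane protein that limits myelination, went the other way, at 0.94 and 0.78 TPM in +/+ and 7.42 and 20.29 TPM in Chd5-/- cells (2.85, adjusted p = 0.120). The Notch target Hes5 varied with the culture instead, from 1.16 TPM in Chd5-/- replicate 1 to 43.69 TPM in replicate 2, beside 8.52 and 3.13 TPM in +/+ cells.

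**Figure D4:**
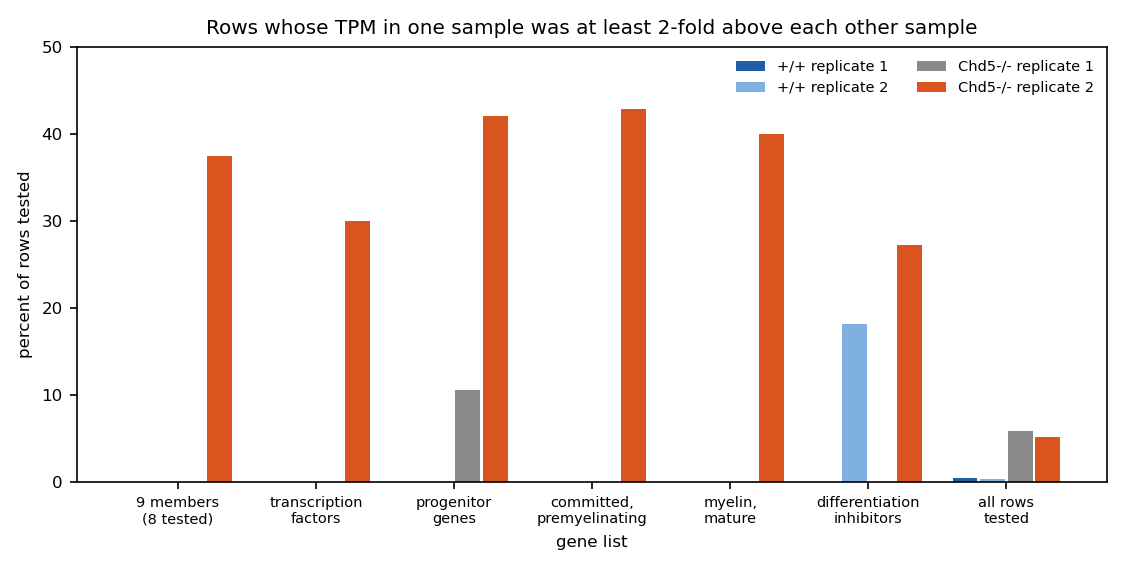
Percent of the rows tested in each list, on the vertical axis, whose TPM in 1 culture was at least 2-fold above each of the other 3, with a bar for each culture and the lists along the horizontal axis. Chd5-/- replicate 2 accounts for nearly all such rows in the 4 oligodendrocyte lists (24 of 63 rows tested), beside 5.11% of all rows. Among the differentiation inhibitors it accounts for 3 of 11 rows tested, and +/+ replicate 2 for 2.

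Other cell types were looked for by their markers. The mural cell markers, which bear on Cspg4, summed to 5.67 and 6.59 TPM in +/+ cells and 21.1 and 13.1 TPM in Chd5-/- cells. In Chd5-/- replicate 2, where Cspg4 was highest, 12.1 TPM of the sum was Notch3. In Chd5-/- replicate 1, 9.55 TPM of it was Acta2 and 6.17 TPM was Notch3. The pericyte receptor Pdgfrb was at most 0.08 TPM in any culture, which is near 0. Fibroblast and meningeal markers, which bear on Pdgfra, summed to between 17.8 and 20.2 TPM in +/+ cells and were at 41.7 and 10.9 TPM in Chd5-/- replicates 1 and 2, most of it Foxc1 in each culture. Col1a1 was at most 0.07 TPM. Col3a1, at 7.41 TPM, and Dcn, at 4.17 TPM, were detected mainly in Chd5-/- replicate 1, where Pdgfra was low. Twist1, of the same list, was instead highest where Pdgfra was, at 0.26 and 0 TPM in +/+ cells and 2.92 and 5.16 TPM in Chd5-/- cells (log2 difference 2.13, adjusted p = 0.120 with limma). The sum of the Schwann cell list was 116 and 84.4 TPM in +/+ cells and 158 and 23.8 TPM in Chd5-/- cells, nearly all of it Pmp22. Microglia markers summed to at most 0.75 TPM over the 3 of 7 found, and endothelial markers to between 1.17 and 19.6 TPM, most of it Flt1.

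Astrocyte and stem cell transcripts also differed between the Chd5-/- cultures. The 8 astrocyte markers summed to 2749 and 2809 TPM in +/+ cells and to 979 and 2435 TPM in Chd5-/- cells. In Chd5-/- replicate 1, 4 of them, Gfap, Aldoc, Slc1a2 and Slc1a3, were at least 2-fold below every other culture, beside 1.98% of all rows. Aqp4, Aldh1l1, S100b and Gja1 were not. The 8 stem cell markers summed to 7947 and 6523 TPM and to 3526 and 5849 TPM. Egfr, the receptor for epidermal growth factor, was at 138.93 and 129.19 TPM in +/+ cells and at 147.21 and 324.03 TPM in Chd5-/- cells. Prom1 and Nes went the other way between the Chd5-/- cultures, with Prom1 at 45.27 and 3.2 TPM and Nes at 94.66 and 60.88 TPM. The 9 neuron markers summed to 535 and 523 TPM in +/+ and 430 and 803 TPM in Chd5-/- cells, most of it Map2, at 365.59 and 784.89 TPM in Chd5-/- cells. Gad1, an enzyme of inhibitory neurons, ran opposite there, at 57.17 and 5.38 TPM, beside 27.85 and 4.34 TPM in +/+ cells, while Rbfox3, which marks mature neurons, was at most 0.07 TPM. The part of these differences in the values of the members was not tested.

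Likeness of pattern was measured as the root mean square distance between row-centred log2(TPM + 1) over the 4 samples, among the genes of the lists. Pdgfra was closest to Sox10 (0.37), Cacng4 (0.44) and Sox3 (0.60), each highest in Chd5-/- replicate 2 and next highest in +/+ replicate 1. Gpr17 was closest to Tnr (0.50), Gjc3 (0.63) and Hes5 (0.69), and Cnp to Neu4 (0.23), Lims2 (0.26) and Gpr37l1 (0.38). Olig1, by contrast, was closest to Map2 (0.069), and Olig2 to Aspa (0.095), with 311 other rows of the table closer still. Nkx2-2 was closest to Pdgfc (0.27), which encodes a platelet-derived growth factor, Cspg4 to Egfr (0.093) and Mbp to Nfia (0.088). In the whole table, 1 row was closer to Gpr17 than Tnr, 4 were closer to Pdgfra than Sox10 and 5 were closer to Cnp than Neu4. More rows were closer to Olig1 than Map2 (11), to Nkx2-2 than Pdgfc (14), to Cspg4 than Egfr (37) and to Mbp than Nfia (107). The distances describe which genes had alike values over 4 samples.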

How the data were processed

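RNA-seq of 4 primary NSC samples was used, 2 +/+ and 2 Chd5-/-. The authors deposited TPM values in 1 table with 2 decimals. The submitters' processing notes name Bowtie2 2.2.3, RSEM 1.2.20 and the build mm10, and the annotation and strand setting are not given in the sources used here. TPM sums to nearly the same total per sample (1000015 to 1000031), so abundant rows shift all others, and no counting error can be attached.

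From these values, each row averaging 1 TPM or more was compared on log2(TPM + 1) with limma 3.58.1 in R 4.3.3 (lmFit, then eBayes with a trend, two-sided, no covariate), with Benjamini-Hochberg adjustment over all 12576 rows. Fold changes on this scale understate those of low genes. GC content and length came from the longest GENCODE M21 transcript, for 93.0% of rows, and trends were removed by loess (span 0.5). Alternatives were other pseudocounts (0.1, 5), other minimums, other scalings, other variance settings, repeated gene names summed, a replicate block and each sample left out. Nothing in the labels says that same-numbered samples belong together. The script was tested on simulated data. The members and lists were chosen with earlier results of these data known. From each further list the text draws on up to 3 largest rises and 3 largest falls, and further genes were picked with their values known. The p-values rest on the spread between 2 cultures per genotype, with each row's variance drawn by eBayes toward that of rows at a similar level. Values of 2 single genes of the lists are not reported here. Further lists covered PDGF genes, proteoglycans, regional genes and markers of other cells.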

Additional observations from a re-analysis of the deposited data

How the results depend on the processing

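With 2 samples per genotype and no read counts, differences such as those of Gpr17 could not be told from the spread between cultures. With GC and length trends removed the members' median was -0.18, beside -0.029 for all rows. In that setting 1 member (Olig2) had an unadjusted p under 0.05 with limma, beside 1313 of 11700 rows. The signs that turned then were those of Olig1 (-0.90), Olig2 (-0.78), Nkx2-2 (-0.59), Cspg4 (-0.096) and Mbp (-0.26). After median-of-ratios scaling they were those of Olig1 (-0.32), Olig2 (-0.24), Nkx2-2 (-0.11) and Mbp (-0.047), after quantile normalization Olig1 (-0.14), Nkx2-2 (-0.24) and Mbp (-0.41), and after rescaling without the 20 most abundant rows Olig1 (-0.14) and Olig2 (-0.059). Cnp, Gpr17 and Pdgfra kept their sign under each scaling.

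With 1 sample left out, the difference ranged from -1.10 to 4.51 for Gpr17, from 0.12 to 2.75 for Cnp, from -0.66 to 1.91 for Pdgfra, from 0.34 to 1.40 for Cspg4, from -0.48 to 0.66 for Olig1, from 0.095 to 0.26 for Olig2, from -0.66 to 1.202 for Nkx2-2 and from -0.16 to 0.57 for Mbp. The members' median ranged from -0.022 to 1.03, beside 0.26 to 0.41 for the median of all rows. Over all rows the number past the adjusted threshold ranged from 0 (without either +/+ sample) to 1247, and the number at an unadjusted p under 0.05 from 804 to 4436.

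The 7 rows past the adjusted threshold were 3 with GC and length trends removed, 4 with a pseudocount of 0.1 or quantile normalization, and 0 with no minimum TPM (3473 at an unadjusted p under 0.05). Rows at an unadjusted p under 0.05 numbered 3033, which was 1313 with the trends removed and 1758 with a minimum mean of 10 TPM. The split into higher and lower was then 612 and 701 with the trends removed, 1104 and 1024 after quantile normalization and 1856 and 818 after rescaling without the most abundant rows. Mag, tested with no minimum TPM, differed by 0.039 (adjusted p = 0.835 with limma). The cause of these changes was not tested.

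Same-numbered samples deviated in opposite directions (r = -0.15 across 12576 rows), so the numbers were not taken to pair them. With the replicate block 0 rows passed the adjusted threshold, 2289 had an unadjusted p under 0.05, and 0 members did. Crossing the pairing, chosen after seeing the data, gave 5 and 3092 rows and 0 members. Medians of the other lists changed sign in 0 to 3 of 16 lists (14 with a minimum mean of 10 TPM) under the other settings and in 6 without Chd5-/- replicate 2.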

Other observations

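Regional transcription factors, which record where in the forebrain a progenitor arose, differed between cultures beside the oligodendrocyte genes. Six3, a factor of the rostral and ventral forebrain, was at 38.13 and 37.64 TPM in +/+ cells and at 0.54 and 0.7 TPM in Chd5-/- cells, and was the only row of all the lists that passed the adjusted threshold (log2 difference -4.59, adjusted p = 0.0267 with limma). Emx2, a factor of the dorsal forebrain, was at 29.59 and 12.11 TPM in +/+ and at 2.3 and 0.2 TPM in Chd5-/- cells (-3.33, adjusted p = 0.120). Lhx2 was at 37.37 and 5.6 TPM in +/+ and 1.55 and 6.73 TPM in Chd5-/- cells. Pax6, another dorsal factor, was instead highest in Chd5-/- replicate 2, at 27.69 and 30.04 TPM in +/+ and 12.98 and 54.41 TPM in Chd5-/- cells (-0.10, adjusted p = 0.939 with limma). Nkx2-1, which marks the most ventral progenitors, was at 2.6 and 1.39 TPM and at 5.56 and 1.32 TPM. Dlx1 and Dlx2, factors of interneuron progenitors, were at most 0.17 TPM. Their part in the values of the oligodendrocyte genes was not tested.

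The ligands of Pdgfra did not share its pattern. Pdgfa was at 8.71 and 10.9 TPM in +/+ and 10.59 and 5.48 TPM in Chd5-/- cells, and Pdgfc was at 7.92 and 21.93 TPM and at 16.24 and 8.87 TPM, so that both were lower in Chd5-/- replicate 2, where Pdgfra was highest, than in replicate 1. Pdgfb was at most 0.04 TPM. Of 7 other chondroitin sulfate proteoglycans, 6 were tested and 5 were highest in Chd5-/- replicate 2, beside 39.9% of all rows. Only 1 of the 6 was at least 2-fold above each other sample there, beside 5.11% of all rows. Cspg5, Bcan, Vcan and Ptprz1 also belong to the progenitor genes above. Bcan (brevican) was at 48.21 and 25.42 TPM in +/+ and 53.6 and 165.97 TPM in Chd5-/- cells, and Ncan (neurocan) was at 248.71 and 255.94 TPM and at 68.34 and 367.53 TPM.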
